A study of Mus musculus with 18 samples.

Results

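The genes described here were the 81 cytosolic ribosomal proteins of the deposited mouse table, of 24419 gene symbols in all. They were taken by symbol: Rpl or Rps followed by a number, with at most 1 further letter and digits, plus Rplp0, Rplp1, Rplp2 and Rpsa. Pseudogene symbols were left out, and an FPKM of at least 1 was required in at least 1 of 18 mice. FPKM counts fragments relative to transcript length and to all mapped fragments of a mouse, so levels of different genes are per length. Of 84 symbols of this form, 3 stayed below that minimum. The 81 members comprised 33 proteins of the small subunit and 48 of the large subunit, and all 81 were above 0 in every mouse.

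The study followed acute myocardial infarction (AMI) in C57BL/6 mice that were 8 weeks old. Under sodium pentobarbital, the left anterior descending coronary artery, which feeds the front wall and apex of the left ventricle, was tied near its origin. RNA of infarcted left ventricle was sequenced as polyadenylated RNA from 3 mice in each of 5 groups, killed 10 min, 1 h, 6 h, 24 h or 72 h later. The 3 control mice are called sham mice by the study, whose sources used here do not describe their surgery. The labels name no engineered allele and no drug other than the anaesthetic in any of the 6 groups, and each library was whole tissue of 1 mouse.

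A cytosolic ribosome is built from a small subunit, which reads the mRNA, and a large subunit, which forms the peptide bond, each made of ribosomal RNA and many proteins. Most of the proteins are needed in equal numbers, and their mRNAs typically belong to the TOP mRNAs. TOP mRNAs start with a run of pyrimidines and are translated under control of the kinase mTOR. Transcription factors such as Myc raise ribosome production in growing cells. Striated muscle is unusual in using a second form of a core protein: RPL3L, encoded by Rpl3l, takes the place of RPL3 near the peptidyl transferase centre in muscle ribosomes.

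The Rpl3 and Rpl3l sequences are shown because this pair moved in opposite directions after AMI, and they show how far reads of the genes can be told apart. Over 1202 aligned coding bases the pair was identical at 899 (74.8%), and the longest stretch shared by the transcripts was 22 bases, against reads of 150 bases. The first 120 coding bases of each, from GENCODE M21 transcripts on mm10, follow, with the 31 bases that differ in capitals.
Rpl3: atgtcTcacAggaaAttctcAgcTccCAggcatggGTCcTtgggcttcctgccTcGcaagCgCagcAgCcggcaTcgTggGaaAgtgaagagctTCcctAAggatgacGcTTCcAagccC
Rpl3l: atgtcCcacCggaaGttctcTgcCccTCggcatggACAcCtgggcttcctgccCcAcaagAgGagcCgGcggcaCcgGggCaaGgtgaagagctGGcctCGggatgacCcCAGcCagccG
The differences were spread over the whole window. Rpl3 lies on the minus strand at chr15:80077791-80091868 and Rpl3l on the plus strand at chr17:24727820-24736143, both as protein-coding genes.

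The start of the transcript is shown because the pyrimidine run is what TOP mRNAs have in common. Rpl7a and Rpl35 were picked for their long runs, and the other 4 members recur in the results. RefSeq gave 72 start sites for 60 of the 81 members on GRCm38.p6. A run of at least 8 pyrimidines within the 30 bases from 10 before to 20 after the start was present at 24 of the 72 starts (33.3%), against 11.2% of all 32851 starts in the table. The windows below run 5′ to 3′ on the strand of the gene, with such a run in capitals.
Rpl7a, chr2:26910797-26910826, plus strand: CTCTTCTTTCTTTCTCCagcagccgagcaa
Rpl35, chr2:39005112-39005141, minus strand: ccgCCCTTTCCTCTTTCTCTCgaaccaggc
Rpl18, chr7:45718061-45718090, plus strand: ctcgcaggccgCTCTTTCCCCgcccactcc
Rps6, chr4:86857348-86857377, minus strand: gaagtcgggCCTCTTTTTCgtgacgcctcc
Rps12, chr10:23787190-23787219, minus strand: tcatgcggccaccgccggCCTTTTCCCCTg
Rpl3l, chr17:24727816-24727845, plus strand: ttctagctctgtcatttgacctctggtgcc
The first 5 were taken only from starts with such a run, and had runs of 17, 18, 10, 10 and 11 pyrimidines. The longest run of the Rpl3l window was 5, and most member starts likewise had no run of at least 8. Over the 300 bases of the promoter, on either strand, CTCTTTC was found at 27.8% of member starts and 8.16% of all starts. ACTTCCG was found at 29.2% and 6.42%, and TATAAA at 9.72% and 13.6%, respectively. None of these 3 motifs contains another, and CTCTTTC is itself made of pyrimidines. RefSeq starts can differ from the start used in heart, and no start was mapped from these data.

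Ribosomal protein mRNAs were among the most abundant transcripts of the ventricle already in sham mice, with a median FPKM over the members of 409, 432 and 397 in the 3 mice. The sham mean was highest for Rps2, which sits at the mRNA entry of the small subunit, at 3504 ± 21.3 FPKM (SD, n = 3); it was named after its value was seen. Rplp0, the base of the stalk that recruits elongation factors, followed at 1968 ± 28.8, and Rpl13a, known as a subunit with a second role in interferon-dependent silencing, at 1225 FPKM. The low end was held by Rps27 (9.18 ± 1.78), Rps4l (48.6 ± 4.26) and Rpl22l1 (63.9 ± 6.55). Of the 100 most abundant symbols, 10 were members in sham mice and 38 were members at 72 h.

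As most members code for parts of the same particle, their share of a mouse's summed FPKM gives their weight among the listed symbols. Symbols that start with mt-, for the mitochondrial genome, held 0% of that sum in every mouse. The member share was 6.91%, 7.21% and 6.76% in the 3 sham mice and stayed between 6.74% and 7.35% at 10 min and 1 h. At 6 h it was 7.63%, 7.26% and 8.05%, above all sham mice. It then reached 8.78%, 10.6% and 10.0% at 24 h, and 12.5%, 12.2% and 13.8% at 72 h, so the 24-h and 72-h AMI mice lay apart from the sham mice and from each other. The mean was 6.96% ± 0.230 in sham and 12.8% ± 0.819 at 72 h (SD, n = 3 each). The large and the small subunit kept pace: the ratio of their FPKM sums was 1.46 ± 0.0131 in sham and 1.47 ± 0.0178 at 72 h.

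**Figure D1:**
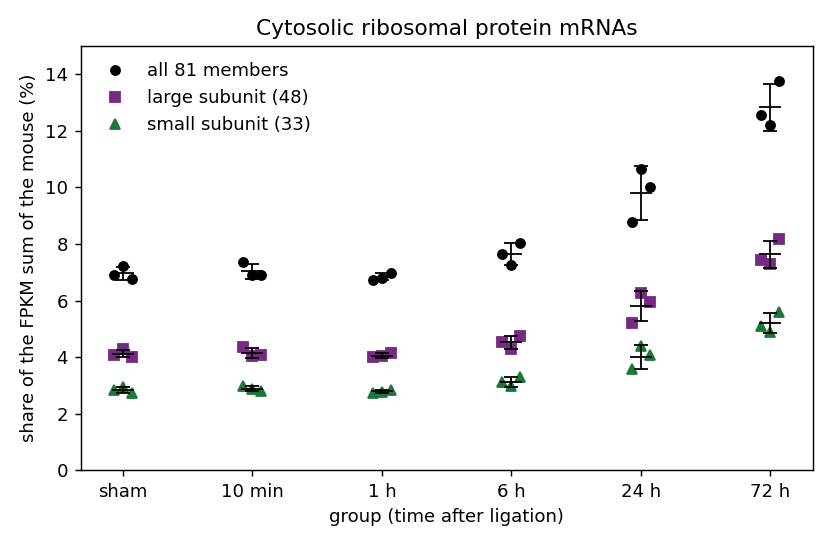
Share of the summed FPKM of each mouse (%, y axis) held by all 81 members (black), the 48 large-subunit members (purple) and the 33 small-subunit members (green) in 6 groups of 3 mice; points are mice and bars the mean ± SD. The share stays near 7% until 1 h, and the 72-h mice lie at 12.2% to 13.8%, above the other groups.

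Each time point was compared with sham to ask when the set changed, using limma on log2(FPKM + 1), with p-values adjusted by the Benjamini-Hochberg method across every tested gene. "Called" stands for an adjusted p under 0.05, and fold changes are on that log2 scale, with the standard error (SE) of the fit. All 5 comparisons used the same 3 sham mice, so they are not independent of each other.

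No member was called at either early time. At 10 min 0 of 81 members were called, while 0.248% of 13297 genes were called higher and 0.0978% lower. At 1 h 0 members were called again, beside 0.669% of all genes higher and 0.0526% lower. At an unadjusted p under 0.05, 0 members were higher and 1 lower at 10 min, against 8.7% and 6% of all genes. At 1 h the same threshold gave 0 higher and 8 lower, against 5.52% and 7.06%. The median log2 fold change of the members was -0.01 at 10 min, turning to 0.01 with equal FPKM sums, and -0.05 at 1 h. The medians of all genes tested were 0.02 and -0.02.

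At 6 h most members had values above sham, while most other genes did not. The log2 fold change was above 0 for 77 of 81 members, and for 38.8% of all genes tested. The median was 0.15 for the members and -0.08 for all genes. The test called 6 members higher and 0 lower, while 11.6% of all genes were called higher and 16.8% lower. Without scaling, the share of members called was thus below that of all genes. In 43 members every 6-h mouse was above every sham mouse, as in 18.6% of all genes.

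The 6 called at 6 h were Rpl18, Rps6, Rpl3, Rpl10a, Rplp0 and Rpl8, the last named after its value was seen. Rps6, the ribosomal protein phosphorylated by S6 kinase downstream of mTOR, lay at 78.6, 83.8 and 76.9 FPKM in sham mice and at 97.1, 96.1 and 103 at 6 h. Rpl18, a large-subunit protein, lay at 551, 601 and 593 in sham and at 746, 753 and 686 at 6 h. For both genes all 6-h mice were above all sham mice, and the rises were 0.30 ± 0.07 for Rps6 (adjusted p = 0.0187) and 0.32 ± 0.07 for Rpl18 (adjusted p = 0.0172). The count rested on single mice: it was 0 without sham replicate 1 or 3, 1 without sham replicate 2, 2 without 6-h replicate 1, 3 without 6-h replicate 3 and 11 without 6-h replicate 2. Calls over all genes moved as well, from 1543 higher to 763, 824 and 877 without sham replicates 1, 2 and 3. Without 6-h replicates 1, 2 and 3 they numbered 1294, 1786 and 1529. With median-of-ratios scaling of the mice, 41 of 81 members and 1977 of 13321 genes were called higher. Under that scaling the share of members called was above that of all genes.

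At 24 h most members had risen. Higher calls numbered 69 of 81, with 1 lower, against 26.2% and 11.4% of all genes tested. Among the 1639 genes with a sham mean FPKM of at least 50, a group closer to the members in abundance, 23.5% were called higher. This cut leaves out genes that rose from a lower sham level. The median of the members was 0.50, that of all genes 0.13, and in 75 members every 24-h mouse was above every sham mouse, as in 39.3% of all genes. The number called at 24 h depended on the sham mice, falling to 21 without sham replicate 1, 32 without replicate 2 and 26 without replicate 3, while the median stayed between 0.43 and 0.56. Higher calls over all genes fell as well, from 3496 of 13327 to 1262, 1319 and 1646 in these fits. The share of members called higher was above that of all genes in each.

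At 72 h nearly the whole set was higher. The test called 76 of 81 members higher and 1 lower, against 53.1% and 24.2% of all genes. Among genes with a sham mean FPKM of at least 50, 30.4% were called higher. The median was 0.88 for the members and 0.29 for all genes, and 23 called members rose over 2-fold in mean FPKM, as did 26.4% of all genes. The medians of the small and the large subunit were close, at 0.88 and 0.89. In 75 members every 72-h mouse was above every sham mouse, as in 55.1% of all genes tested.

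**Figure D2:**
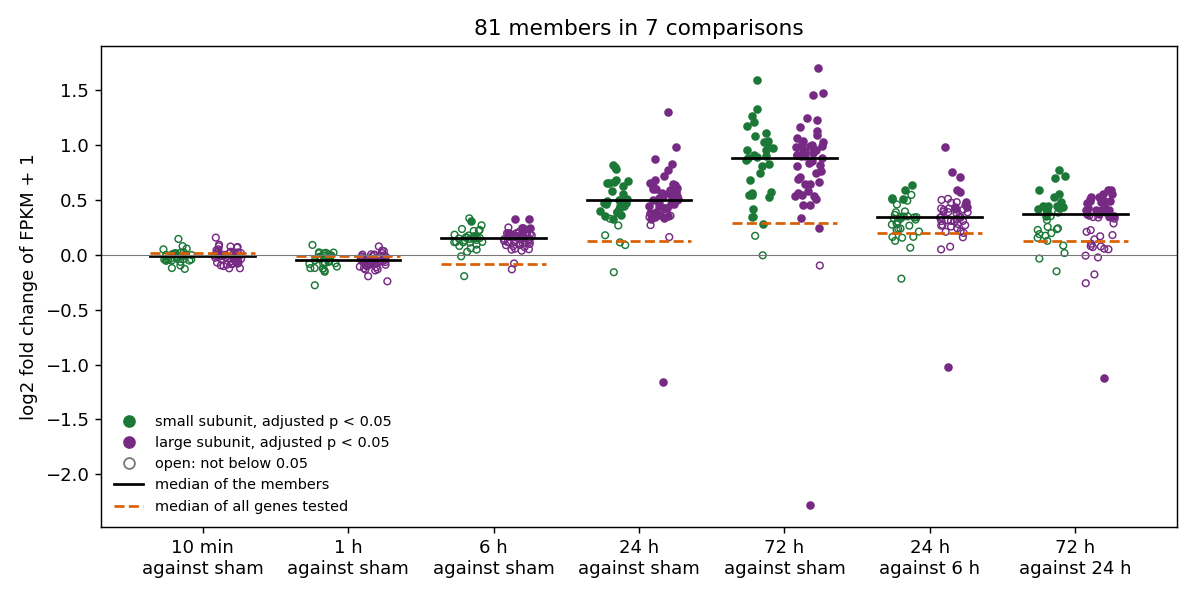
Log2 fold change of FPKM + 1 (y axis) of each of the 81 members in 7 comparisons (x axis), small subunit green and large subunit purple; filled points have an adjusted p under 0.05, the solid line is the median of the members and the dashed line that of all genes tested. The member median moves from -0.05 at 1 h to 0.88 at 72 h, and each filled point below 0, 1 in each of 4 comparisons, is Rpl3l.

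FPKM of a mouse are relative to its own total, and the median of all genes itself rose by 0.29 at 72 h. Median-of-ratios scaling took that median to 0.04 and the member median to 0.57, with 62 members called higher and 3 lower. Of all 13329 genes tested, 5243 were called higher and 4752 lower under that scaling. The distance between the members and all genes was 0.59 without scaling, 0.53 with median-of-ratios scaling, 0.61 with equal sums and 1.03 after quantile normalization. At 24 h the same distances were 0.37, 0.34, 0.37 and 0.52. The members thus lay above the median gene under each of these scalings, and the size of the step depended on the scaling.

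The muscle-specific Rpl3l was the exception, and its partner Rpl3 was the member that rose most. In the 3 sham mice Rpl3l lay at 727, 755 and 741 FPKM. It was listed at 619.8, 699 and 713 after 6 h, 402, 374 and 243 after 24 h, and 216, 135 and 121 after 72 h. Rpl3, the form used by other tissues, lay at 225, 214 and 236 in sham, then at 286, 254 and 307 (6 h), 465, 586 and 635 (24 h) and 682, 750.4 and 776 (72 h). The groups at 24 h and at 72 h did not overlap with sham for either gene, and they crossed between 6 h and 24 h.

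Rpl3l fell by 1.16 ± 0.19 on the log2 scale at 24 h (limma, adjusted p = 0.00676) and by 2.28 ± 0.19 at 72 h (adjusted p = 7.25e-06). Rpl3 rose by 0.32 ± 0.09 at 6 h (adjusted p = 0.0322), by a mean FPKM ratio of 2.5 at 24 h (adjusted p = 0.00213) and by 1.70 ± 0.08 at 72 h (adjusted p = 2.9e-07). As a share of the pair, Rpl3l made up 76.7% ± 1.07 in sham, 70.5% ± 2.52 at 6 h, 37.7% ± 9.38 at 24 h and 17.6% ± 5.65 at 72 h. The summed FPKM of the pair went from 966 ± 13.3 in sham to 893 ± 6.71 at 72 h (exact two-sided permutation p = 0.1, the smallest possible).

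**Figure D3:**
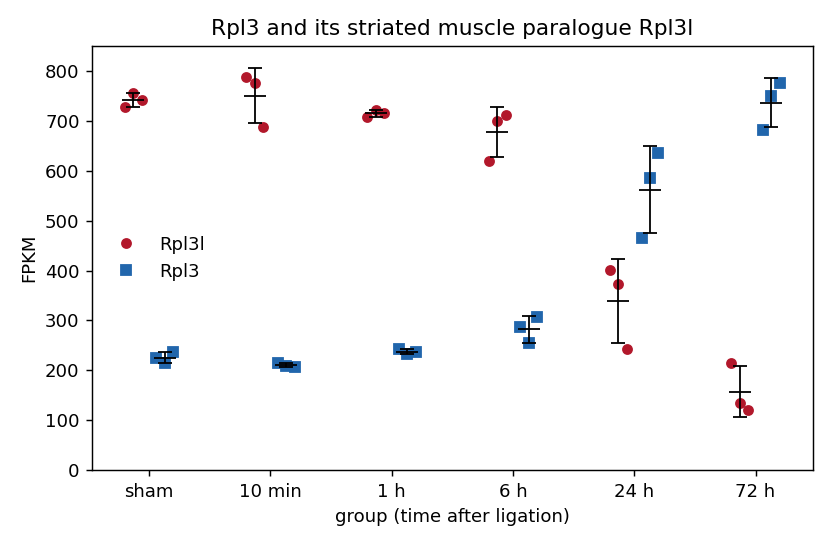
FPKM (y axis) of Rpl3l (red circles) and Rpl3 (blue squares) in the 3 mice of each of 6 groups, with the mean ± SD. Rpl3l is above Rpl3 up to 6 h, and Rpl3 is above Rpl3l in every 24-h and 72-h mouse.

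Markers of cardiomyocytes, the cells that express Rpl3l, fell as well. All 8 listed markers, among them Tnnt2 and Atp2a2, were called lower at 72 h with a median of -1.64, and 5 of 8 at 24 h with a median of -0.71. Their summed FPKM went from 55765 to 59296 over the sham mice to 20429 to 25375 at 72 h. Relative to Tnnt2, the cardiac troponin T, Rpl3l made up 3.15%, 3.15% and 3.44% in the sham mice and 1.80%, 1.33% and 1.21% at 72 h. Relative to Atp2a2, the calcium pump of the sarcoplasmic reticulum, it made up 18.5%, 18.8% and 18.8% in sham and 14.2%, 10.5% and 9.71% at 72 h. Both ratios were lower in every 72-h mouse than in every sham mouse, with an exact two-sided permutation p of 0.1, the smallest that 3 against 3 mice allow. The ratio to Atp2a2 was already lower in every mouse at 10 min (mean 15.8%) and 1 h (mean 15.9%) than in sham (mean 18.7%), with the same p of 0.1 in the exact permutation test, while that to Tnnt2 was not. Other listed markers fell nearly as far as Rpl3l at 72 h: Myl2 was at -2.04, Myh6 at -1.88 and Tnni3 at -1.88, against -1.10 for Tnnt2 and -1.56 for Atp2a2. In whole tissue, fewer cells of a type and less RNA per cell cannot be told apart.

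The 5 members with the highest rise at 72 h were Rpl3, Rps12, Rpl12, Rpl10 and Rpsa, and their 72-h mice were all above their sham mice. Rps12, a small-subunit protein of the beak, lay at 429, 432 and 397 FPKM in sham and at 1214, 1138 and 1450 at 72 h (1.59 ± 0.11, adjusted p = 1.97e-06). Rpl12, part of the stalk base, lay at 231, 261 and 235 in sham and at 642, 645 and 736 at 72 h (1.47 ± 0.09, adjusted p = 1.04e-06). Those levels correspond to more than a 2-fold rise in each 72-h mouse over the sham mean.

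Rpl10, which joins the large subunit last and completes its peptidyl transferase centre, lay at 305, 317 and 302 in sham and at 794, 825 and 931 at 72 h (1.46 ± 0.08, adjusted p = 8.58e-07). Rpsa, a small-subunit protein that also serves as a laminin receptor, lay at 81.4, 81.9 and 85.1 in sham and at 203, 201 and 226 at 72 h (1.33 ± 0.07, adjusted p = 4.74e-07). All 4 genes were intermediate at 24 h, with log2 fold changes of 0.81 for Rps12, 0.98 for Rpl12, 0.87 for Rpl10 and 0.78 for Rpsa, each called.

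The stalk proteins differed among themselves. Rplp0 rose by 0.90 ± 0.10 at 72 h and Rplp1 by 1.00 ± 0.09, both called. Rplp2, which pairs with Rplp1 on the stalk, rose by 0.43 ± 0.12 at 24 h (adjusted p = 0.0304) and by 0.25 ± 0.07 at 72 h (adjusted p = 0.0132), and its 72-h value turned to -0.06 (adjusted p = 0.513) with median-of-ratios scaling. Its 72-h value was below the median of all genes, 0.29.

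Members with known roles outside the ribosome were called higher at 72 h. Rpl5 and Rpl11, which bind the p53 regulator MDM2 when ribosome assembly is disturbed, rose by 0.86 ± 0.08 and 0.91 ± 0.09. Rpl13a rose by 1.25 ± 0.12 and Rps6 by 0.88 ± 0.07. Rps3, known also for a role in DNA repair, rose by 0.96 ± 0.09, and Rps19, the gene most often mutated in Diamond-Blackfan anaemia, lay at 267, 288 and 258 FPKM in sham and 591, 572 and 682 at 72 h (adjusted p = 4.7e-06). Rps27a, made as a fusion with ubiquitin, rose by 1.08 ± 0.11. Rpl38, known for translation of Hox mRNAs, was lower in this order at 0.46 ± 0.10, with an adjusted p of 0.0027 against at most 2.62e-05 for the other 7. With median-of-ratios scaling Rpl38 was at 0.15 and no longer called (adjusted p = 0.243), while the other 7 stayed called at 0.55 to 0.94.

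Not every member rose. At 72 h the test called neither Rpl36 (-0.10 ± 0.10, adjusted p = 0.404), Rps29 (-0.0049 ± 0.08, adjusted p = 0.961), Rps4l (0.17 ± 0.08, adjusted p = 0.0654) nor Rps27 (0.34 ± 0.16, adjusted p = 0.0727). Rps29, a zinc-binding small-subunit protein, lay at 343, 339.98 and 364 FPKM in sham and at 363, 315 and 367 at 72 h, with overlapping groups. Rpl36, a large-subunit protein, lay at 1029, 969.5 and 883 in sham and at 958, 805 and 932 at 72 h, again with overlap. With median-of-ratios scaling Rpl36 (-0.41) and Rps29 (-0.32) were the members called lower beside Rpl3l. Rpl36 and Rps29 were named after their values were seen.

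**Figure D4:**
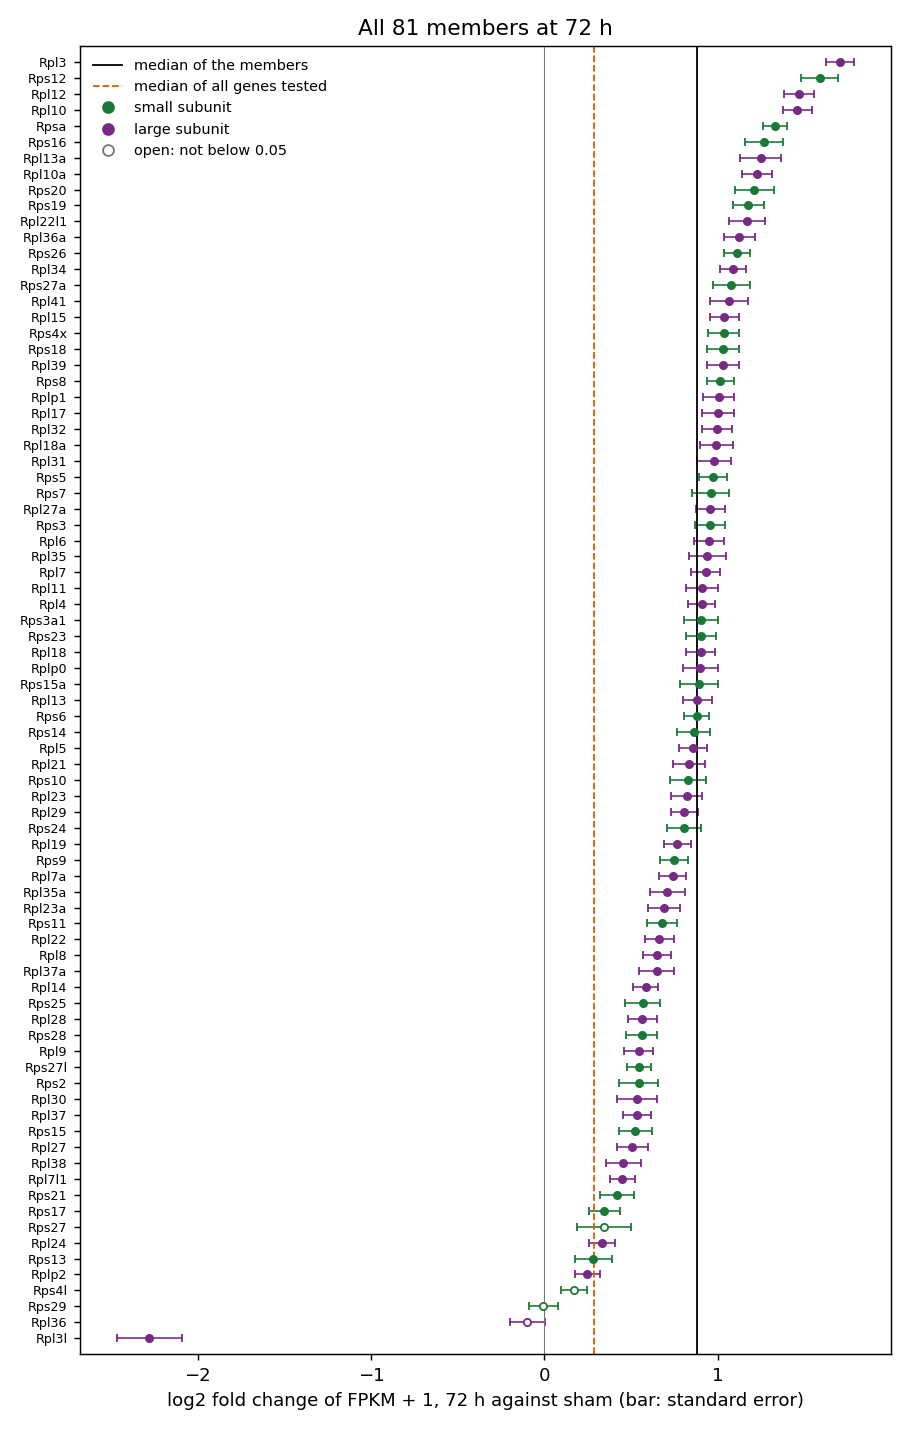
Log2 fold change of FPKM + 1 at 72 h against sham (x axis, bar: SE) for all 81 members in order (y axis), small subunit green and large subunit purple, with open points where the adjusted p was not under 0.05. The members run from Rpl3l at -2.28 to Rpl3 at 1.70, with 4 open points between -0.10 and 0.34.

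Several members have a paralogue in the family. Rpl3l was the only member called lower at 72 h, so no other pair could have calls in both directions. Rpl22l1 lay at 58.2, 71.1 and 62.4 FPKM in sham and at 145, 129 and 161 at 72 h (1.17 ± 0.10, adjusted p = 9.98e-06). Its partner Rpl22 lay at 199, 209 and 192 in sham and at 314, 291 and 349 at 72 h (0.66 ± 0.08, adjusted p = 0.000104). Both genes were above sham in every 72-h mouse, and Rpl22l1 went from 24.2% ± 1.38 of the pair to 31.3% ± 0.490 (exact two-sided permutation p = 0.1, the smallest possible).

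Rps27l, a target of p53, rose by 0.54 ± 0.07 at 72 h (adjusted p = 0.000102). Rpl7 rose by 0.93 ± 0.09 and Rpl7l1, which is not a standard ribosome component, by 0.45 ± 0.07, both called. With median-of-ratios scaling Rpl7l1 was at 0.14 and lost its call (adjusted p = 0.0766), while Rpl7 at 0.62 and Rps27l at 0.23 kept theirs. Rps4x, on the X chromosome, rose by 1.03 ± 0.09 while Rps4l, annotated in GENCODE M21 as a transcribed processed pseudogene, was not called. Rpl39, a short protein of the exit tunnel, rose by 1.03 ± 0.09 (adjusted p = 1.22e-05).

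Just below the FPKM minimum lay Rpl26, with at most 0.701 FPKM in any mouse, Rpl39l with at most 0.673, and Rpl10l at 0 in all mice. The members closest above it were Rps27, whose highest value was 15.5, and Rps4l, with 58.9. For Rps27, the 252 coding bases are identical to those of Rps27rt, a copy on chromosome 9 that was looked up after the Rps27 value was seen, and 98.4% of the 100-base stretches of its transcript recur elsewhere in the annotation. Rps27rt was listed at 1346, 1475 and 1285 FPKM in sham and at 1557, 1369 and 1569 at 72 h, with overlapping groups and no call (0.13 ± 0.10, adjusted p = 0.269). Which of the copies the reads came from cannot be told apart. For Rpl26, 36.8% of the 100-base stretches of the transcript recur in other annotated genes. Whether its low values reflect expression or the assignment of reads was not tested.

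Shared sequence is common in this family, since ribosomal protein mRNAs have many processed pseudogenes. At least 50% of the 100-base stretches of the transcript were found in another annotated gene for 34 members, and under 50% for 47. At 72 h, 32 of the 34 were called higher with a median of 0.89, and 44 of the 47 with a median of 0.86, with Rpl3l as the 1 lower call in the latter group. Rpl3l shared none of its stretches and Rpl3 shared 79.4%, mostly with Rpl3-ps1. Over the 81 members, Spearman's rho between the 72-h log2 fold change and the shared percent was 0.14, with transcript length 0.25 and with the sham mean FPKM -0.15. These describe genes measured in the same libraries, which are not independent replicates.

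Consecutive late time points were compared to ask how the rise was divided. Between 6 h and 24 h, 14 members were called higher and 1 lower, against 12.5% and 1.94% of all genes tested. Between 24 h and 72 h, 40 were called higher and 1 lower, against 29.7% and 13.5%. The member medians of these steps were 0.34 and 0.37, and those of all genes 0.20 and 0.13. With median-of-ratios scaling the member medians were 0.09 and 0.20, and 1 and 9 members were called higher. The medians of all genes were then 0.01 and -0.01, and 403 of 13328 and 3144 of 13330 genes were called higher. Under that scaling the share of members called higher was below that of all genes in both steps, while without scaling it was above.

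The first step was uneven over the members and over the mice. Its highest rises were those of Rpl3 (0.98 ± 0.15, adjusted p = 0.0158), Rpl12 (0.76 ± 0.14, adjusted p = 0.0237), Rpl10 (0.70 ± 0.13, adjusted p = 0.0214), Rpsa (0.64 ± 0.15) and Rpl13a (0.59 ± 0.13), all called. Rpl3l fell by 1.02 ± 0.20 (adjusted p = 0.0244). The call counts rested on single mice: 0 members were called higher without 6-h replicate 1, 2 or 3 or without 24-h replicate 2, 3 without 24-h replicate 3, and 34 without 24-h replicate 1. All 18 mice in 1 fit gave 67. The calls over all genes moved too, from 1664 higher to 191, 1 and 1 without 6-h replicates 1, 2 and 3 in order. Without 24-h replicates 1, 2 and 3 they numbered 1745, 27 and 873, and all 18 mice in 1 fit gave 4848 of 13333. With median-of-ratios scaling Rpl3 (0.73, adjusted p = 0.0333) and Rpl3l kept their calls, while Rpl12, Rpl10, Rpsa and Rpl13a lost theirs (adjusted p = 0.0549 to 0.127).

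In the second step the highest rises were those of Rps12, Rps4x, Rps20, Rpl10 and Rps16. Rps12 rose by 0.77 ± 0.17 (adjusted p = 0.00805), Rps4x by 0.71 ± 0.12 (adjusted p = 0.00275), Rps20 by 0.70 ± 0.16 (adjusted p = 0.00978), Rpl10 by 0.59 ± 0.13 and Rps16 by 0.59 ± 0.15, all called. Rps4x lay at 296, 340 and 320 FPKM at 24 h and at 497, 492 and 582 at 72 h, without overlap. Rpl18, which had risen by 0.82 at 24 h, differed by 0.08 between 24 h and 72 h and was not called. Rpl3l fell by a further 1.12 ± 0.27 (adjusted p = 0.0125). Here 5 members were called higher without 72-h replicate 3, 12 without 72-h replicate 1, 20 without 72-h replicate 2 and 15 without 24-h replicate 1. Without 24-h replicates 2 and 3 the counts were 38 and 31. In the same order, 2802, 3265, 3002, 3201, 3422 and 4818 of 13328 to 13330 genes were called higher, against 3963 in the main fit. Without 72-h replicate 1 or 3 or 24-h replicate 1, the share of members called was below that of all genes.

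The 24-h mice differed among themselves. Replicate 1 had the lowest member share (8.78%) and the highest Rpl3l share of the pair (46.3%), and replicate 3 had the lowest Rpl3l share (27.7%). The summed FPKM of 5 pan-leukocyte markers was 284, 313 and 636 in the same mice, and that of 4 neutrophil markers 201, 40.0 and 922. The part of these cells in the member levels was not tested.

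Markers of other cell types moved with the members at 72 h. All 5 pan-leukocyte markers, all 5 macrophage markers and all 6 fibroblast markers were called higher, with medians of 3.79, 3.49 and 5.24. Their summed FPKM ranged over 51.6 to 73.7, 175 to 202 and 228 to 256 in sham mice, and over 948 to 1111, 1674 to 2180 and 3649 to 4780 at 72 h, respectively. Of the neutrophil markers, 4 of 4 were called higher at 6 h and 3 of 4 at 72 h. Smooth muscle markers gave 3 higher and 1 lower call of 4 at 72 h, endothelial markers 0 and 2 of 5, atrial markers 1 and 0 of 3, erythroid markers 0 and 2 of 5 and B cell markers 2 and 0 of 2. None of the 3 T cell or 3 adipocyte markers reached 1 FPKM. The part of these cells in the member levels was not tested either.

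Other genes of the translation machinery were described to place the members. Among ribosome partners outside the naming rule, Fau, Gnb2l1 and Rpl36al were called higher at 72 h. Fau, which codes for RPS30 fused to a ubiquitin-like protein, rose by 1.08 ± 0.08, and Gnb2l1, the table's symbol for the scaffold protein RACK1, by 1.20. Of 19 other TOP mRNAs, 16 were called higher at 72 h and 0 lower, with a median of 0.58, against the 53.1% of all genes called higher. With median-of-ratios scaling 11 were called higher and 3 lower, with a median of 0.27, beside 5243 and 4752 of all 13329 genes. Eef1a1, the elongation factor that brings tRNA to the ribosome, rose by 2.18 at 72 h, and Npm1, a nucleolar chaperone, by 1.46.

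Ribosome biogenesis genes had their highest median at 24 h. Of 58 tested, 34 were called higher and 2 lower at 6 h, with a median of 0.39, against 11.6% and 16.8% of all genes. At 24 h the counts were 42 and 0, with a median of 0.62, against 26.2% and 11.4%. At 72 h they were 33 and 7, against 53.1% and 24.2%. The share called higher was then close to that of all genes. The 72-h median was 0.45 without scaling and -0.01 after quantile normalization, so its direction depended on the scaling. Between 24 h and 72 h, 0 of the 58 were called higher and 17 lower, while 40 members were called higher. Of all genes tested, 29.7% were called higher and 13.5% lower in that step. Eif6, which keeps the large subunit from joining too early, rose by 0.59 at 6 h, 1.28 at 24 h and 1.04 at 72 h, all called. Nhp2, a core protein of box H/ACA particles, rose by 0.62, 1.32 and 1.25 at these times, all called.

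Among 23 mTOR and Myc regulators, 5 were called higher and 1 lower at 6 h, against 11.6% and 16.8% of all genes. The counts were 3 and 0 at 24 h, against 26.2% and 11.4%, then 8 and 4 at 72 h, against 53.1% and 24.2%. At 24 h and 72 h the share called higher was below that of all genes. Myc, a transcription factor that drives ribosome production, lay at 0.141, 0.174 and 0.163 FPKM in sham and at 4.30, 2.33 and 1.72 at 6 h, without overlap (1.65 on the log2(FPKM + 1) scale, adjusted p = 0.00314). It remained called at 24 h (1.35) and 72 h (1.06). The other 4 called higher at 6 h were Mxd1 (1.85), a Myc antagonist, the mTOR inhibitors Ddit4 (1.09) and Sesn2 (0.55), and Max (0.37), the partner of both Myc and Mxd1. The lower call was Mycn (-0.60). Ddit4, Max and Mycn were named after their values were seen. The list as a whole had medians of -0.06, 0.12 and 0.03 at 6 h, 24 h and 72 h, whose direction changed with the scaling at each of these times.

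Mitochondrial ribosomal proteins, which build the separate ribosome of the mitochondrion, moved the other way at 24 h and 72 h. Of 77 tested, 10 were called lower and 0 higher at 6 h, against 16.8% and 11.6% of all genes. The share called lower at 6 h was thus below that of all genes. Lower calls numbered 19 at 24 h, with 4 higher, against 11.4% and 26.2% of all genes. At 72 h lower calls numbered 62, with 2 higher, against 24.2% and 53.1%. Their median was -0.57 at 72 h without scaling and between -0.87 and -0.49 under the 3 other scalings, against 0.57 to 0.96 for the cytosolic set. Their share of the summed FPKM was 1.09% ± 0.0141 in sham and 0.757% ± 0.0503 at 72 h (SD, n = 3 each), with no overlap between the groups.

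**Figure D5:**
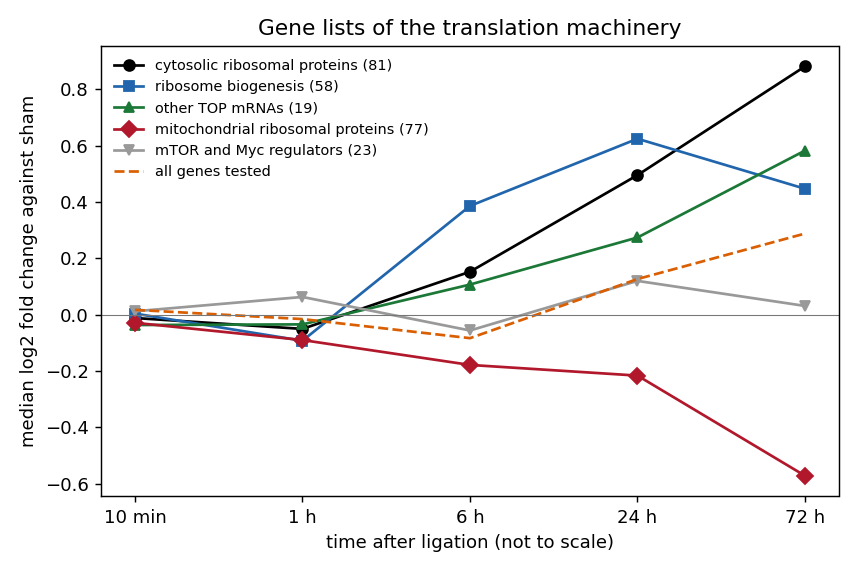
Median log2 fold change against sham (y axis) at 5 times after ligation (x axis, not to scale) for the 81 members and 4 gene lists, with all genes tested dashed and the number of genes in parentheses. The members reach 0.88 at 72 h, ribosome biogenesis is highest at 24 h with 0.62, and mitochondrial ribosomal proteins end at -0.57.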

How the data were processed

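Libraries of polyadenylated RNA from 18 mouse left ventricles were sequenced by the authors as 150 bp paired-end reads, trimmed with cutadapt 1.18, mapped to mm10 with HISAT2 2.1.0 and quantified with StringTie 1.3.4d. The deposited table gives FPKM per gene symbol and mouse. The annotation behind it is not given in the sources used here. The authors' own comparisons were made with Cufflinks and Cuffdiff, which need reads and were not repeated. FPKM were used as deposited, and all 18 columns of values were used. Groups came from the sample titles.

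The 13333 symbols that reached 1 FPKM in any mouse were tested on log2(FPKM + 1) with limma 3.58.1 in R 4.3.3 (lmFit, eBayes with trend, two-sided). Each comparison used its own 3 + 3 mice, with Benjamini-Hochberg adjustment over the genes tested. The steps were tested on simulated data. Replicates are separate mice. Read counts are not part of the table. Precision therefore comes from the spread between mice, with no interval for counting error. Relative depth, estimated from the lowest values, ranged from 0.809 to 1.31 against the first sham mouse, and FPKM sums from 542418 to 600467.

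Members and lists were chosen with earlier results of these data known. The members named were those with a paralogue in the family, the stalk proteins and Rpsa, members with a known second role, the highest 5 rises and falls among called members without overlap, and those next to the FPKM minimum. Other TOP mRNAs, ribosome biogenesis genes, mTOR and Myc regulators and cell type markers were listed by hand, and mitochondrial ribosomal proteins taken by symbol. Single values were compared with exact permutation tests (scipy 1.17.1). Positions, transcripts and shared 100-base stretches are from GENCODE M21, transcript starts from RefSeq on GRCm38.p6, and coding sequences were aligned with Biopython 1.88. Alternatives were a pseudocount of 0.1, 2 other filters, 3 scalings, all mice in 1 fit, the replicate number as a block, no variance trend and leaving out each mouse. A listed ribosome partner is not reported here.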

Additional observations from a re-analysis of the deposited data

Results flagged for a closer look

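The steps between consecutive late times were set apart because the same genes were tested in adjoining intervals. Members called higher numbered 14 between 6 h and 24 h and 40 between 24 h and 72 h, with 1 called lower in each, Rpl3l in both cases (limma, Benjamini-Hochberg). Of all genes tested, 12.5% and 29.7% were called higher in these steps, and 1.94% and 13.5% lower. The fold change of each step equals the difference between the log2 fold changes of its 2 time points against sham. The sham mice did not enter the fits of the steps. The 24-h mice enter both steps, so the counts are not independent, and whether the steps differ from each other was not tested.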

How the results depend on the processing

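The table gives relative values and no counts, and groups of 3 mice limit every test. At 10 min and 1 h no alternative called a member. At 6 h, 6 members were called higher, and 41 with median-of-ratios scaling, 2 after quantile normalization, 1 with the replicate block, 3 without the variance trend and 0 to 11 without 1 mouse. The 6-h median of 0.15 became 0.26 and 0.0878 with the first 2 of these. Over all genes, 1543 higher calls at 6 h became, in the same order, 1977, 1650, 1262, 1542 and 763 to 1786. At 24 h the 69 higher calls became 43 with median-of-ratios scaling (median 0.35) and 21 to 71 without 1 mouse. Those over all genes went from 3496 to 1262 to 4043 without 1 mouse and to 2535 with median-of-ratios scaling. At 72 h that scaling gave 3 lower calls instead of 1 and a median of 0.57, turned Rplp2 to -0.0604, and no alternative took the higher calls below 62. Over all genes it gave 5243 higher and 4752 lower calls, against 7081 and 3226 in the main fit. For 24 h against 6 h, 14 higher calls became 3 without a filter, 22 with a filter on the mean, 1 with median-of-ratios scaling (median 0.0923), 24 with equal sums, 4 after quantile normalization, 67 with all mice in 1 fit and 0 with the replicate block, which also left 0 lower calls. Leaving out 1 mouse gave 0 to 34 higher and 0 to 1 lower calls. Over all genes, 1664 higher calls became 976 of 18249 without a filter, 1775 of 11997 with a filter on the mean and 403 with median-of-ratios scaling. They became 1817 with equal sums, 371 after quantile normalization, 4848 with all mice in 1 fit and 1 with the replicate block. Without 1 mouse they ranged from 1 to 1745. For 72 h against 24 h, 40 became 23 without a filter, 9 with median-of-ratios scaling (2 lower, median 0.20) and 5 to 38 higher and 0 to 1 lower without 1 mouse. Higher calls over all genes went from 3963 to 4266 of 18788, 3144 and 2802 to 4818 in these fits. The median at 1 h ranged from -0.0764 to -0.0149 without 1 mouse.

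Without the 10 most abundant genes of each mouse in the denominator, the member share was 8.14% in sham and 8.16%, 7.95%, 8.80%, 11.1% and 13.9% at the 5 times in order. These 10 genes held 0 members in the sham, 10-min and 1-h mice, at most 1 at 6 h, 1 to 2 at 24 h and 3 in each 72-h mouse. Left out of the member sum too, a choice made after seeing the data, they gave the same shares up to 1 h, then 8.25%, 9.85% and 11.6%. Of 3150 single-member values under alternatives, 2849 kept their side of the threshold, 228 lost the call, 72 gained it and 1 reversed. A reversal was counted only where the value was called in the main or the alternative fit. Sign changes of values called in neither fit are among the 2849. The replicate numbers were not taken as pairs, since same-numbered mice did not deviate together: in no comparison was every correlation of their deviations above 0.1 (range -0.33 to 0.41), and in none did every mouse correlate best with its own number.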
